A study of Drosophila melanogaster with 66 samples.

Results

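The genes described here are those with which the fly embryo counts its X chromosomes. They are Sxl, the switch gene, 3 X-linked signals (sisA, sc and upd1) and dpn, an autosomal gene that works against them. These 5 genes were chosen by name, and they were set beside 13842 protein-coding genes of X, 2L, 2R, 3L and 3R in a table of 17872 genes. Regions were taken from 25 lists of chromatin immunoprecipitation peaks, and occupied here means that a listed region touched the gene or the 1 kb on either side of it. In all, 128 of 124393 listed regions met that rule: 79 of CLAMP, 44 of H4K16ac and 5 of MSL3.

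In Drosophila an XX embryo makes more of the X-linked signals than an XY embryo, and this difference switches on an early promoter of Sxl in females during the syncytial cycles. sisA encodes a bZIP transcription factor, sc a bHLH activator that pairs with the product of da, and upd1 a cytokine of the JAK/STAT pathway. dpn encodes a bHLH repressor of the Hairy family that acts with the co-repressor Groucho. Sxl is an RNA-binding protein that keeps itself on by splicing its own transcript. It also blocks production of MSL2, so that the MSL (male-specific lethal) complex, which raises transcription of the male X, assembles in males.

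The series holds 66 samples of Drosophila melanogaster embryos. Of these, 16 are of CLAMP, a zinc finger factor of GA repeats, 16 of IgG and 16 of input. Another 10 are of H4K16ac, a histone H4 acetylation that the MSL complex deposits on the male X, mapped here in both sexes. The other 8 are of MSL3, a subunit of that complex. Male embryos had fathers that were 19-3 with yw and Rsp[s]-B[s] over Y, and that carried SPSD/SD72. Female embryos had fathers that were + over Dp(2:y) CB25-4 (with y+ and Rsp[s]B[s]), and that carried SPSD/SD72 too. This is a meiotic drive cross, in which most sperm that would give the other sex are lost, and the mothers of both sexes were yw; attP2{PCNA-EGFP}. Flies were kept at 24 °C, and embryos were sorted by hand into nuclear cycles 11, 12, 13 and 14 in pools of 200. A further group is labelled 2-4 h, with no cycle. The pools are whole embryos, so cells of different kinds and of slightly different age are mixed. Each sex, stage and target had 1 list (MSL3 in males only), so no value below has a replicate error and no difference between lists was tested.

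The lists differed greatly in length, and each count below has to be read against that. The CLAMP lists held 133, 604, 4959, 8393 and 10466 regions in males at cycles 11, 12, 13, 14 and 2-4 h, against 5462, 1811, 3916, 529 and 10435 in females. The male cycle 13 MSL3 list held 15149 regions and the other MSL3 lists between 33 and 1434. Regions on chromosome Y, a check of the sex labels, numbered 0, 0, 0, 8 and 16 in the male CLAMP lists and 0, 0, 0, 0 and 3 in the female ones, and 5, 4, 3, 3 and 9 in the male H4K16ac lists and 5, 1, 0, 0 and 2 in the female ones. They did not separate the sexes at cycle 11 in either target, nor at cycles 12 and 13 in CLAMP. The male cycle 14 CLAMP list, though long, lacked the CLAMP site found in most lists at Sxl, sisA, sc and dpn, as described below. The short male cycle 11 list lacked it at the same genes. Read depth was unknown.

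The members differ in size and surroundings. Sxl spans 23.5 kb at X 7074550 to 7098053 (dm6 coordinates, as all below), with 25 RefSeq transcripts, and holds the genes mir-4956 and lncRNA:CR46494 within it. Its neighbours are CG4607, 1860 bp away on the lower-coordinate side, and CG4615, 524 bp away on the higher-coordinate side. sisA is the shortest, 779 bp at X 11321579 to 11322357, with l(1)10Bb 1936 bp beyond its higher-coordinate end and Ir10a 10370 bp away on the other side. sc covers 1438 bp at X 396060 to 397497, lies within the annotated span of CG32816, and has its relative l(1)sc 12223 bp away and lncRNA:CR44753 2832 bp away. upd1 covers 3938 bp at X 18305354 to 18309291, with lncRNA:CR45608 1210 bp beyond its higher-coordinate end and lncRNA:CR15061 12294 bp away on the other side. dpn covers 3360 bp at 2R 8228971 to 8232330, with CG34217 243 bp away and pnut, a septin gene, 4940 bp away. The gene table gives no strand, so ends are called lower or higher by coordinate and not promoter or terminator.

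**Figure D1:**
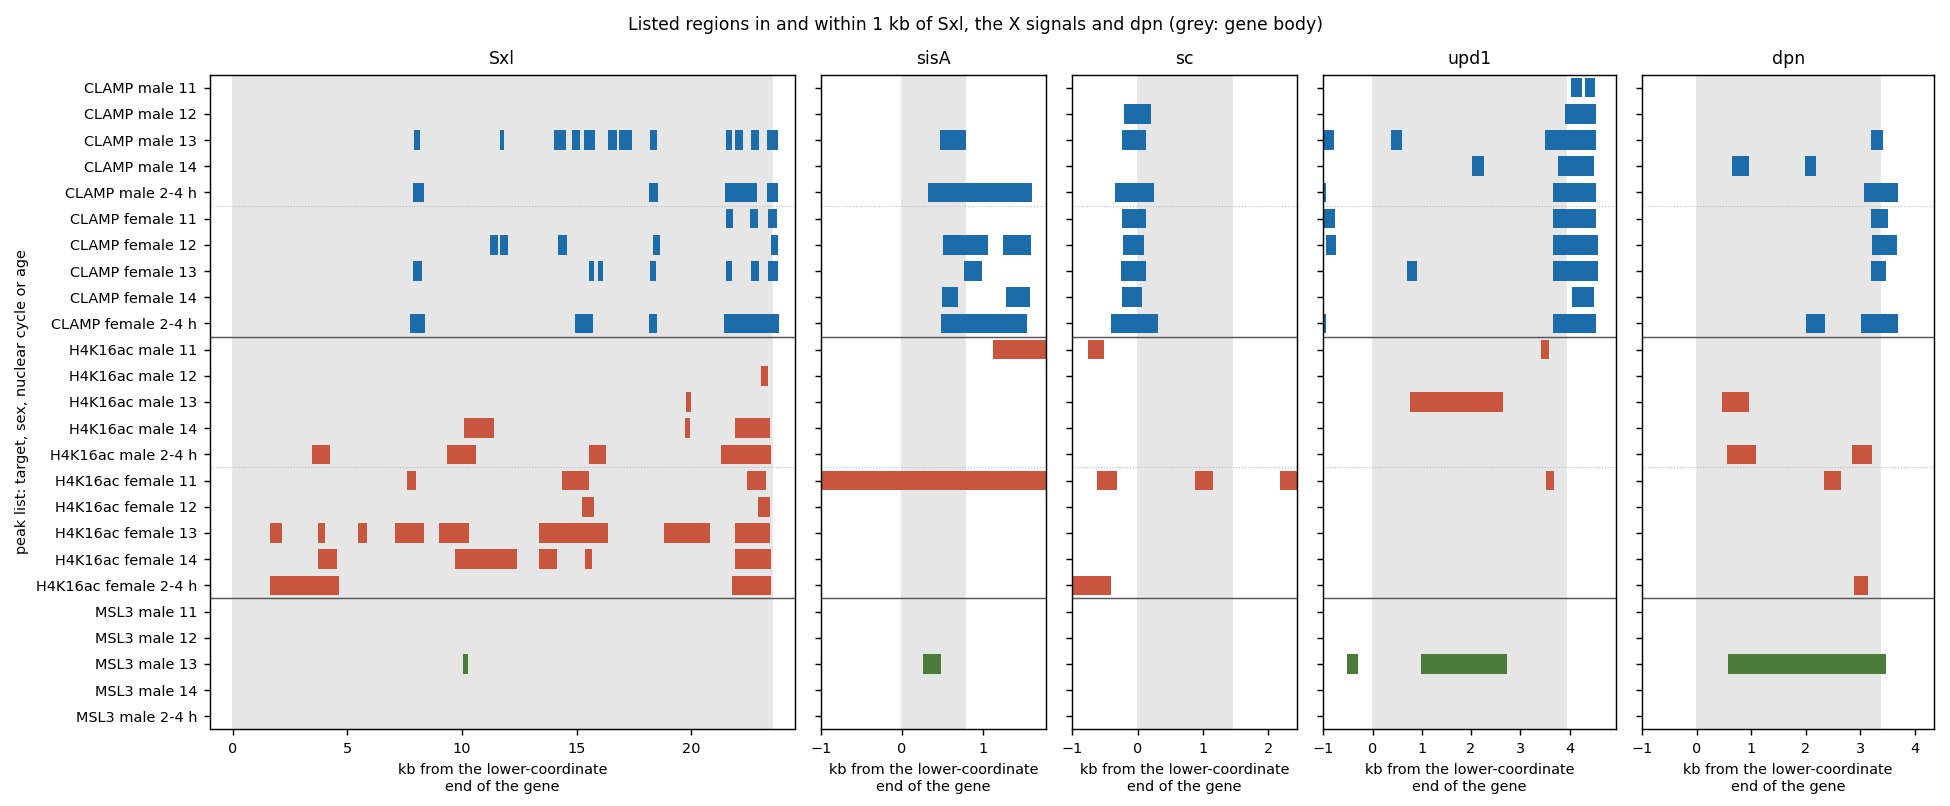
Listed regions at the 5 genes. Each row is 1 peak list (target, sex, nuclear cycle or age), bars are regions, the horizontal axis is the distance in kb from the lower-coordinate end of the gene, and grey marks the gene body; bars are clipped 1 kb beyond the gene. CLAMP bars stack at 1 end of upd1 in all 10 lists and at the lower-coordinate end of sc in 8, while MSL3 bars stand in the cycle 13 row and in no other.

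CLAMP was listed at upd1 in all 10 lists, at sc in 8, at dpn in 7 and at Sxl and sisA in 6 each. Among all protein-coding genes, 0.498% had CLAMP in all 10 lists, 4.54% in at least 8 and 15.1% in at least 6. Each gene had a narrow site present in most of its lists, and at Sxl every list with that site held other sites too. Summits, the points of highest signal in a region, were joined into a site where neighbouring summits lay within 300 bp of each other. By that count upd1 had 5 sites, dpn 3, sisA 2, sc 1 and the much longer Sxl 15.

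The site at upd1 lay just outside the gene, between X 18309504 and 18309762, a median of 262 bp beyond its higher-coordinate end. Its fold enrichment over local background, as the authors' peak caller gave it, was 4.35, 8.71, 12.9, 18.6 and 10.7 in males in stage order (cycles 11 to 14, then 2-4 h). In females it was 14.4, 10.6, 14.6, 6.73 and 10.8 at the same stages. Folds have no scaling between lists, so each was also placed among the regions of its own list. The site stood at percentile 51.9, 90.1, 98.7, 99.1 and 91.5 in males, and at 99.1, 95.6, 95.5, 89.4 and 95.2 in females. It was thus among the stronger regions of 9 lists and near the middle of the male cycle 11 list, where it was present as separate summits 213 and 471 bp beyond the gene. A weaker site on the other side, a median of 1537 bp before the lower-coordinate end, was listed in males at cycle 13 (fold 5.92) and 2-4 h (6.48) and in females at 2-4 h (5.25).

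The site at sc lay at the opposite, lower-coordinate end, between X 395959 and 396013, so that 8 summits fell within 54 bp of each other. Its fold was 4.06, 6.24 and 13.0 in males at cycles 12 and 13 and at 2-4 h, and it was not listed in males at cycles 11 and 14. In females it was listed at all 5 stages, at 3.33, 7.63, 5.60, 5.42 and 12.3. Within the lists it stood at percentile 21.8, 86.1 and 95.4 in males and at 51.6, 89.4, 67.8, 80.4 and 96.7 in females. The male and female values at 2-4 h were close to each other, and both were higher in rank than at any earlier stage of the same sex.

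The site at dpn lay over its higher-coordinate end, from 2R 8232270 to 8232516. It was listed in males at cycle 13 (fold 2.85) and 2-4 h (10.2), and in females at cycles 11 (3.41), 12 (4.16) and 13 (4.20) and at 2-4 h (7.95). Its percentile at 2-4 h was 90.1 in males and 87.4 in females, against 32.4 at male cycle 13 and between 46.3 and 53.4 in the earlier female lists. The male cycle 14 list had CLAMP at dpn too, but inside the gene at 787 and 2087 bp from the lower-coordinate end and not at this site. The nearest region in the female cycle 14 list lay 1140 bp beyond the gene, just outside the 1 kb limit.

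At sisA the site covered the higher-coordinate end, with summits from X 11322185 to 11322461. Its fold was 2.54 in males at cycle 13 and 5.18 at 2-4 h, and in females 3.43, 3.14 and 3.23 at the last 3 cycles and 3.66 at 2-4 h. These were modest within their lists, at percentile 18.6 and 57.8 in males and between 15.4 and 43.0 in females. A further site, 631 bp beyond the gene, was listed in 4 lists and reached its highest fold, 5.26, in females at cycle 12. Since sisA is only 779 bp long, CLAMP regions covered 40.2 and 58.3% of its body in those male lists and between 1.93 and 38.6% in the female ones. The female cycle 11 list had no CLAMP at sisA, and its nearest region lay 2856 bp away over l(1)10Bb and Gapvd1.

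Sxl had more CLAMP sites than the other members, 15 in all, of which 5 were in a single list each. It is also among 999 protein-coding genes of at least 20 kb, which are more often occupied than genes in general. Of these long genes, 4.8, 20.4, 63.3, 84.5 and 86.5% had CLAMP in males in stage order and 67.7, 40.9, 57.4, 16.4 and 88.2% in females. Sxl had none in the male cycle 14 list, where most long genes did, and its nearest region there lay 4565 bp away in CG4607. The site in most lists, 6, lay between X 7098132 and 7098176, a median of 97 bp beyond the higher-coordinate end and thus between Sxl and CG4615. Its fold was 4.88 in males at cycle 13 and 5.94 at 2-4 h, and in females 4.37, 6.67 and 6.12 at cycles 11, 12 and 13 and 4.04 at 2-4 h. It stood at percentile 76.0 and 66.4 in males, against 71.0, 85.1, 72.3 and 50.1 in females. Neither cycle 14 list held it.

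Sites in 5 of the 10 lists lay a median of 774, 1823 and 5156 bp inside that end. Another, 8039 bp from the lower-coordinate end, was listed in both sexes at cycle 13 and 2-4 h, with 4 summits within 24 bp. Sites in Sxl were unevenly spread along the gene. Cut into 4 equal stretches from the lower-coordinate end, the first held CLAMP in 0 of 10 lists, the next in 5, the one after in 4 and the last in 6. The male cycle 13 list was the fullest, with 12 regions over 18.3% of the body, and over 41.4% of the stretch before the last.

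**Figure D2:**
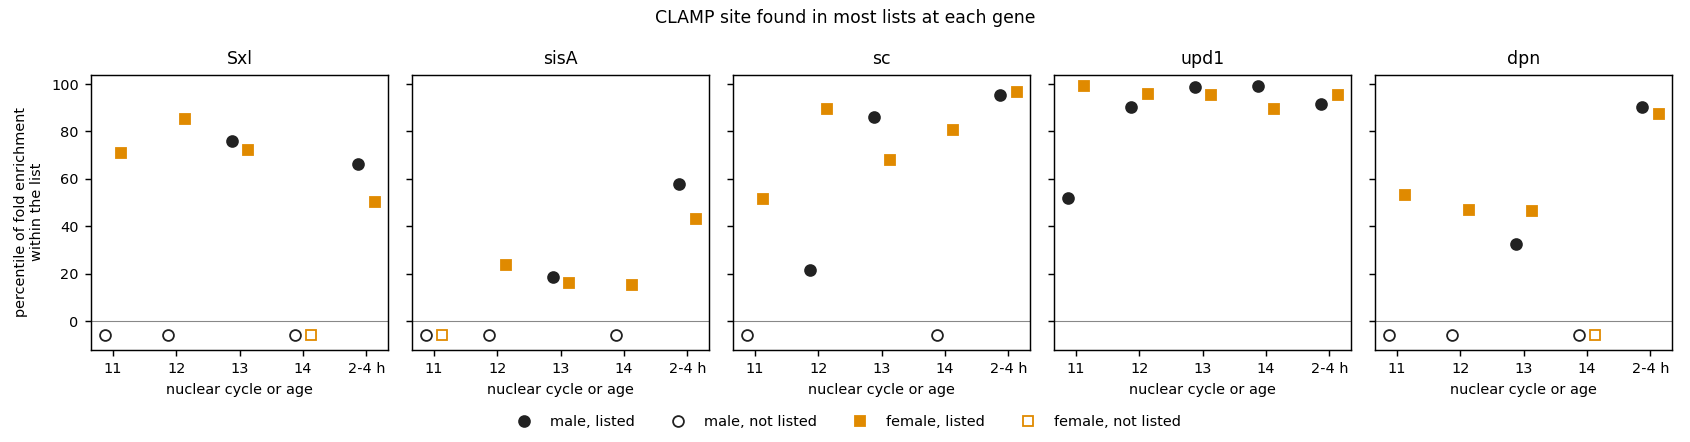
The CLAMP site found in most lists at each gene. The vertical axis is the percentile of its fold enrichment within the list, the horizontal axis the nuclear cycle or age, with males as filled circles left of females as filled squares, and open symbols below 0 mark lists without the site. upd1 has no open symbol, and male cycles 11 and 14 are open at the other 4 genes.

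Set side by side at the same stage, the sexes shared all calls at cycle 13 and 2-4 h. At cycles 11 and 14 they shared only the call at upd1, and at cycle 12 those at sc and upd1. Of 25 combinations of gene and stage, 14 were occupied in both sexes, 1 in the male list only, 8 in the female list only and 2 in neither. In males 1, 2, 5, 2 and 5 of the 5 genes were occupied in stage order, where 1.05, 3.97, 27.8, 31.2 and 59.5% of all protein-coding genes were, and 0.956, 4.42, 34, 31.8 and 62.4% of those on X. In females 4, 5, 5, 3 and 5 were occupied, where 30.9, 10.7, 22, 3.92 and 60.7% of all genes were, and 43.7, 16.9, 33.6, 6.28 and 66.8% of those on X. At cycle 13 and at 2-4 h all 5 genes were occupied in both sexes, and 58.1% of all genes were so at 2-4 h. At cycle 13, 7.4 and 1.59% of all genes had CLAMP only in the male or only in the female list.

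The combinations with CLAMP in the female list only were Sxl, sc and dpn at cycle 11, Sxl, sisA and dpn at cycle 12, and sisA and sc at cycle 14. At cycles 11 and 12 the female list was the longer by far, and 30.2 and 6.88% of all genes had CLAMP in it alone. At cycle 14 the male list was the longer, 8393 regions against 529, and 0.498% of all genes had CLAMP in the female list alone, against 27.7% in the male list alone. The combination found only in males was dpn at cycle 14, through the interior sites named above. Without the cycle 14 lists, the count was 0 for males only and 6 for females only.

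H4K16ac was listed at Sxl in 9 of 10 lists, at dpn in 4, at sc and upd1 in 3 each and at sisA in 2. Of all protein-coding genes, 39.6% had it in at least 9 lists, 60.5% in at least 4, 64.2% in at least 3 and 68.9% in at least 2. Of genes of at least 20 kb, the class of Sxl, 14.8 to 76.5% were occupied in the male lists and 50.4 to 75.2% in the female ones. In males 3, 1, 3, 1 and 2 of the 5 genes were occupied in stage order, where 14, 48.7, 55, 64 and 65.2% of all genes were, and 10.2, 49.9, 65, 72 and 67% of those on X. In females 5, 1, 1, 1 and 3 were occupied, where 53.4, 50.2, 56.2, 58.3 and 63.8% of all genes were, and 72.1, 56, 63.5, 68 and 68.8% of those on X. The members were above the share of all genes in both cycle 11 lists. In the male cycle 13 and female 2-4 h lists, 3 of 5 is close to that share, and in the remaining lists they were below it.

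At Sxl the cover of the gene body was 0, 1.24, 0.906, 13.1 and 21.2% in males in stage order, and 10.2, 4.52, 44.0, 26.3 and 19.9% in females. The female value was the higher at the 4 nuclear cycles and the male value at 2-4 h, by 1.29 percentage points. At cycle 13 the gap was 43.0 points, and 15.6% of all genes (16.5% of those on X) were at least 25 points higher in the female list at that stage. The female cycle 13 value stood at percentile 75.4 among protein-coding genes of X, and the other values of Sxl between percentile 40.1 and 62.9. The median protein-coding gene of X had 0, 0, 3.79, 43.0 and 11.4% in males and 32.1, 0, 7.16, 16.1 and 10.6% in females. Sxl was below that median at male cycles 13 and 14 and female cycle 11, level with it at male cycle 11, and above it in the other 6 lists. In males, 2 of the 5 values came from a single region each, 291 and 213 bp wide.

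These regions favoured the higher-coordinate end, as the CLAMP sites did. The last of the 4 stretches of Sxl held H4K16ac in 9 of 10 lists, against 4, 5 and 5 lists for the first 3. Regions close to that end were listed at male cycles 12 and 14 and 2-4 h and at all 5 female stages, and they ended between 32 and 239 bp inside the gene. Cover of the last stretch was 36.8% at 2-4 h in males and 28.6% in females, and 60.2% in females at cycle 13. CG4615, the neighbour beyond that end, had H4K16ac over part of its body in 7 lists, and CG4607 on the other side had it in 0. In the female 2-4 h list 50.9% of the first stretch was covered too, against 13.4% in the male one.

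At sisA a region of 14365 bp at female cycle 11 (X 11319506 to 11333870, fold 3.16, percentile 91.9 in its list) covered the whole gene, beside 0% at male cycle 11. The male cycle 11 list had a region of 2813 bp that began 353 bp beyond the gene (fold 4.46). At the other 4 stages of both sexes the body cover was 0%, and the nearest region lay between 2247 and 2501 bp away, over l(1)10Bb. That neighbour had H4K16ac over 30.7 to 100% of its body in all 10 lists. At female cycle 11, 20.8% of all genes and 52.8% of genes on X were at least 25 points higher than in the male list, and sisA was the only member past that mark at this stage.

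At sc, cover was 18.6% at female cycle 11 and 0% in the other 9 lists. Regions beside the gene were listed at male cycle 11 (512 bp away, fold 3.33) and at female 2-4 h (408 bp away, 1.52). At upd1 the male cycle 13 list had a region of 1891 bp (fold 5.27) over 48.0% of the body, beside 0% in the female list. At that stage 3.68% of all genes and 6.69% of genes on X were at least 25 points higher in males. Cover of upd1 at cycle 11 was 4.22% in males and 4.24% in females, from small regions near the higher-coordinate end. It was 0% in the remaining 7 lists. The nearest H4K16ac region to upd1 in those lists lay between 61629 and 61750 bp away, over CrebB. At dpn the values above 0 were 14.8% at male cycle 13 and 26.8% at male 2-4 h, and 9.08% at female cycle 11 and 7.86% at female 2-4 h.

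Of 25 combinations of gene and stage, 1 was at least 25 points higher in males (upd1 at cycle 13) and 2 in females (sisA at cycle 11 and Sxl at cycle 13). Each of the 3 rested on 1 list of each sex. With only regions of −log10 q of at least 5 the counts were 1 in males and 0 in females, since the sisA region at female cycle 11 had a −log10 q of 4.91 and most of those over Sxl at female cycle 13 were below 5.

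**Figure D3:**
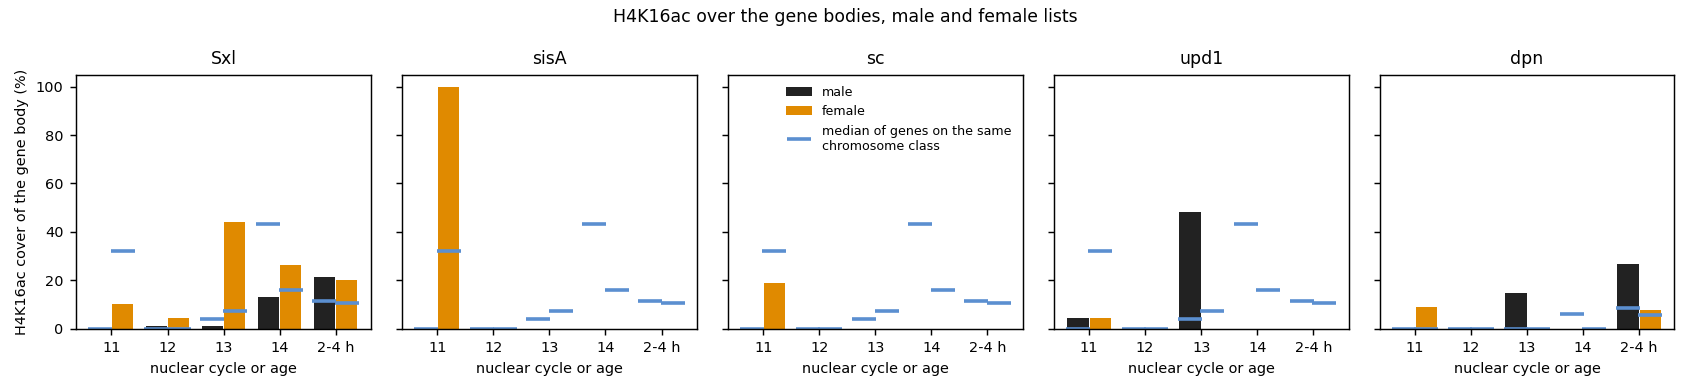
H4K16ac cover of each gene body, in percent of its base pairs, by nuclear cycle or age. Male lists are dark bars left of female lists in orange, and blue dashes mark the median of protein-coding genes of X (for dpn, of the autosome arms) in the same list. The tallest bars are female sisA at cycle 11 (100%), male upd1 at cycle 13 (48.0%) and female Sxl at cycle 13 (44.0%).

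MSL3, mapped in males, was listed at 4 of the 5 genes at cycle 13 and at 0 of 5 at each of the other 4 stages. At cycle 13, 75.9% of all genes and 71.9% of those on X were occupied, so 4 of 5 is close to the share of genes in general. Regions covered 0.851% of Sxl (fold 3.07), 29.7% of sisA (2.78), 44.2% of upd1 (3.18 at the stronger of 2 regions), 82.9% of dpn (2.76) and 0% of sc. The autosomal gene dpn thus had more cover than any of the 4 X-linked ones, and stood at percentile 94.7 among autosomal genes. The −log10 q of these regions, a measure of confidence from the authors' peak caller, was between 2.31 and 3.20, so none would pass a limit of 5.

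At cycle 14, 16.1% of all genes and 50.6% of genes on X had MSL3, and none of the 4 X-linked members did. The nearest region to Sxl lay 1391 bp away over CG4615 (682 bp wide, fold 2.09), just outside the limit, and the nearest to sisA 5657 bp away, a region of 10381 bp over Gapvd1 and Kap3. The nearest to upd1 was 62596 bp away and the nearest to sc 72648 bp away. At 2-4 h, 4.54% of all genes and 18% of genes on X had MSL3, and the nearest region to an X-linked member, sisA, was 23040 bp away. At cycles 11 and 12, 0.217 and 0.144% of all genes and 0 and 0.865% of those on X were occupied. Without the cycle 13 list the count of members with MSL3 was 0.

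Where more than 1 target was listed at a gene, the regions shared base pairs in some lists and not in others. CLAMP and H4K16ac were both listed at a gene in 15 combinations of gene, sex and stage, and their regions shared base pairs in 8 of them. MSL3 shared base pairs with H4K16ac in 2 of 3 such combinations and with CLAMP in 2 of 4. At Sxl the overlap of CLAMP and H4K16ac was 1611 bp in males at 2-4 h, 56.8% of the CLAMP base pairs. In females it was 1681 bp at 2-4 h (39.9%), 1309 bp at cycle 13 (61.1%) and 328 bp at cycle 11 (30.7%). It was 0 bp at male cycle 13 and female cycle 12, where both targets were also listed at Sxl. The CLAMP summit 97 bp beyond Sxl lay outside the H4K16ac regions, which ended within the gene. At upd1 in males at cycle 13, MSL3 and H4K16ac shared 1661 bp inside the gene, 85.0% of the MSL3 base pairs and 87.8% of the H4K16ac ones, and neither touched CLAMP. At dpn in the same stage and sex, MSL3 covered all 224 bp of CLAMP and 396 of 497 bp of H4K16ac.

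A list of 16 further genes that act on the count or on Sxl was described in the same way. Among them are run, a Runt-domain factor and weaker X-linked signal, dome and hop, the receptor and kinase that carry the upd1 signal to Stat92E, and zld, the pioneer factor Zelda. The maternal partners and inhibitors of the count are da, gro, emc and her. The genes snf, vir, fl(2)d, nito, Flacc, Mettl3 and Mettl14 serve Sxl splicing, the last 6 through RNA methylation. CLAMP was listed at 1, 4, 13, 10 and 16 of the 16 in males in stage order, and at 13, 6, 12, 4 and 16 in females. The shares of all genes in the same lists were 1.05, 3.97, 27.8, 31.2 and 59.5% in males and 30.9, 10.7, 22, 3.92 and 60.7% in females. At 2-4 h all 16 were occupied in both sexes, as were the 5 members.

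run was like upd1 in having CLAMP in all 10 lists. Its highest fold was 8.40, 9.67, 13.2, 31.7 and 11.8 in males in stage order and 11.5, 16.4, 17.9, 5.32 and 10.96 in females. zld and emc had CLAMP in 9 lists each, fl(2)d in 8 and dome and Stat92E in 7. The fewest among the regulators were at Mettl14, with 2, and at snf and hop, with 3. Of all genes, 59.4% had CLAMP in at least 2 lists and 40.2% in at least 3. The share of genes with CLAMP in as many lists as zld, 9, was 2.33%.

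H4K16ac was listed at 8, 15, 15, 14 and 15 of the 16 regulators in males and at 16, 14, 14, 14 and 15 in females. The shares of all genes were 14, 48.7, 55, 64 and 65.2% in males and 53.4, 50.2, 56.2, 58.3 and 63.8% in females. The median body cover of the regulators ranged from 0 to 44.0% in males and from 19.1 to 35.0% in females. The median over all genes ranged from 0 to 8.74% in males and from 0 to 6.83% in females. Median cover of the 5 members was 0% in 8 of the 10 lists. Sxl, with H4K16ac in 9 lists, had as many as her, hop, zld, vir, fl(2)d, Mettl3 and Mettl14. Of the regulators, run stood closest to the X-linked signals, with H4K16ac in 3 lists and at most 19.3% of its body covered. Flacc had it in all 10, over 45.2 to 100% of its body.

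MSL3 at cycle 14 was listed at hop, over 96.3% of its body, Flacc (89.8%), dome (74.6%) and Mettl3, and at 2-4 h at dome (18.1%) and beside Flacc. The first 3 are on X, and of the other X-linked regulators, run, zld and snf, none had it at cycle 14. At cycle 14, 50.6% of genes on X and 16.1% of all genes had MSL3, against 18 and 4.54% at 2-4 h. The 3 of 6 regulators on X at cycle 14 are thus close to the share of genes on X. H4K16ac cover of dome was 3.81, 8.54, 55.2, 87.7 and 56.5% in males in stage order, and 74.99, 11.0, 26.5, 45.4 and 10.4% in females. It was thus the higher in females at cycles 11 and 12 and in males at the later stages. Cover of hop was 0% in males and 80.1% in females at cycle 11, and 94.3% in males and 23.4% in females at cycle 14. Of genes on X, 52.8% were at least 25 points higher in females at cycle 11 and 23.6% in males at cycle 14. Over the 16 regulators and 5 stages, 6 of 80 combinations were at least 25 points higher in males and 11 in females. By stage, between 0.13 and 12.2% of all genes were that much higher in males, and between 0.824 and 20.8% in females.

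**Figure D4:**
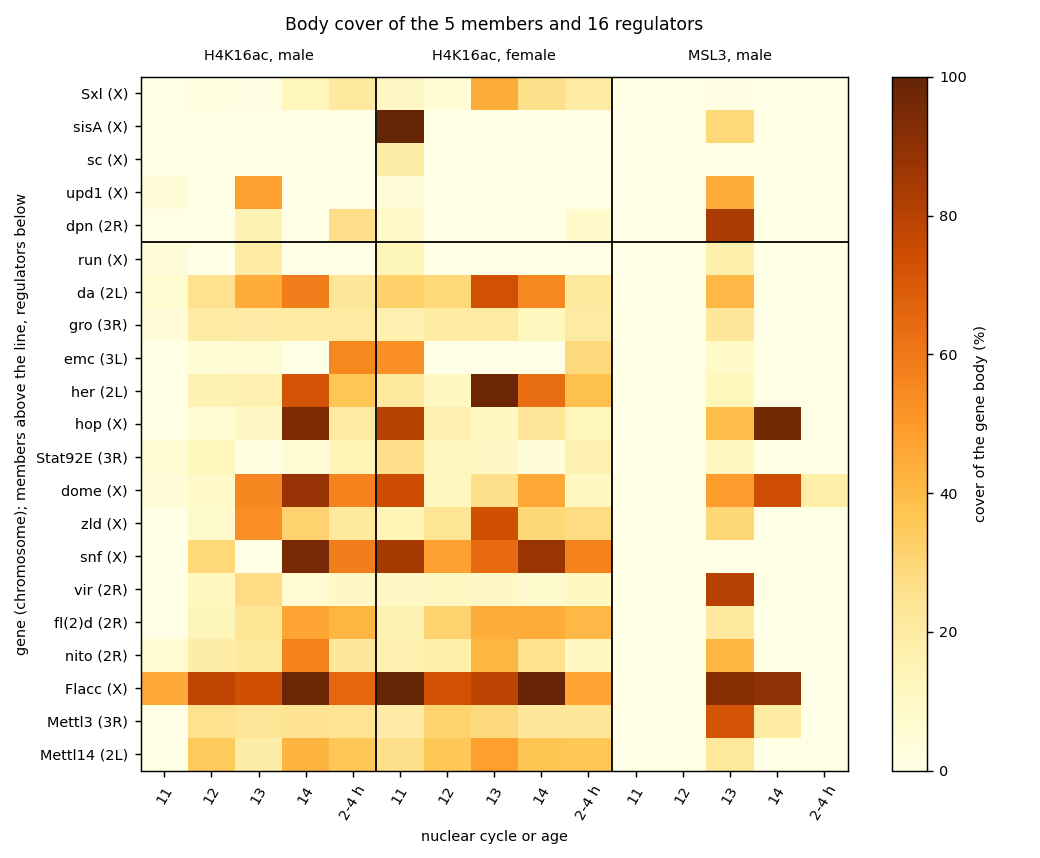
Cover of the gene body, in percent by colour, for the 5 members above the line and the 16 regulators below it, with the chromosome in brackets. Columns are the H4K16ac lists of males, those of females and the MSL3 lists of males, each by nuclear cycle or age. The rows of sisA, sc, upd1 and run are nearly empty for H4K16ac, and hop, dome and Flacc are the darkest cells of the MSL3 column of cycle 14.

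Relatives of the members were taken from the same gene families. l(1)sc, the neighbour of sc in the achaete-scute complex, had CLAMP in 9 lists, among them male cycles 11 and 14, where sc did not. ac had it in 7 lists and ase in 2. The cytokine genes upd2 and upd3 had CLAMP in 7 and 6 lists, fewer than upd1. Among Hairy-family genes, hry had it in 7 lists, E(spl)m8-HLH in 8 and Hesr in 0. Of all protein-coding genes, 2.33% had CLAMP in at least 9 lists, 4.54% in at least 8 and 8.55% in at least 7. The share was 15.1% for at least 6 lists and 59.4% for at least 2. H4K16ac was listed at or beside E(spl)m8-HLH in all 10 lists and at hry in 8, with up to 91.0% of the hry body covered. It was listed at l(1)sc in 2 lists, at ac and upd2 in 1 each and at ase, upd3 and Hesr in 0. Of all genes, 12.1% had H4K16ac in all 10 lists, 46.4% in at least 8, 68.9% in at least 2 and 76.3% in at least 1. MSL3 was listed at 5 of these 8 relatives at cycle 13 and at 0 of 8 at cycle 14. At those stages 75.9 and 16.1% of all genes had it, and 71.9 and 50.6% of those on X.

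For each member, the 3 protein-coding genes with the most similar body cover over the 25 lists were found, by the mean absolute difference in percentage points. For Sxl these were CG31955 (3.36 points), RpL10 (3.41) and CG17683 (3.71). For sisA they were CREG (7.49), gt, a gap gene on X (8.47), and CG13711 (8.88), and for sc they were ind, a homeobox gene (2.24), CheA29a (2.32) and CG3823 (2.34). For upd1 they were Sidpn (3.26), CG18599 (3.31) and lbe (3.36), and for dpn Lsp1beta (3.05), Orct2 (3.35) and Argk2 (3.44). All of these genes but gt had cover in fewer lists than their member, as few as 3 for Sidpn and CG18599 against 12 for upd1. Lists without cover in either gene count as alike in this measure. Between members the difference ranged from 6.44 points between upd1 and dpn to 16.2 between Sxl and sisA. By occupancy, sisA and sc had the same state in 21 of 25 lists, and Sxl and upd1 in 13.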

How the data were processed

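CLAMP, H4K16ac and MSL3 regions came from 25 peak lists of sexed embryos, grouped by sex, stage and target from the labels. The submitters' processing notes name the dm6 build and the tools Bowtie2, Picard, SAMtools 1.9 and MACS2 2.1.1. The settings, the control library and any pooling of replicates are not given in the sources used here. The fold enrichment (a ratio), the −log10 p and −log10 q and the score of each region are the authors' deposited values, with no scaling between lists; the score, which follows −log10 q in all but 6 of 131027 lines, was not used. Summit offsets are in base pairs, as deposited.

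There is 1 list per group, and 9 groups have 2 labelled samples, so p-values and replicate errors could not be had. IgG and input samples were not used here. Depth is unknown. Summits sharing a region were joined, with the highest fold kept. Genes came from the RefSeq table of Release 6, which has no strand or sequence, so the planned motif search was not run. Overlap was at least 1 bp, and the interval functions were tested on simulated data. Python 3.11.15, pandas 2.3.3 and matplotlib 3.10.9 were used. Percentiles count ties as 0.5.

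Members, gene lists and rules were chosen with earlier results of these data known. Named genes are the members, 16 regulators, 8 relatives, each member's nearest annotated gene on either side, and the 3 genes most alike in cover for each member with cover in at least 3 lists. Kap3, Gapvd1, CrebB and the genes inside or around a member were named after their values were seen. Alternatives were the gene body alone, a flank of 5 kb, −log10 q of at least 5, regions 50% inside, calls at 10 and 50 points, and leaving out lists.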

Additional observations from a re-analysis of the deposited data

How the results depend on the processing

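CLAMP calls at the members changed little. Of 50 combinations of gene and list, 37 were occupied. The count was between 35 and 40 with the gene body only, a flank of 5 kb, −log10 q of at least 5 or regions 50% inside. Without the male cycle 14 list, which held 2 of the 37, it was 35 of fewer combinations. H4K16ac calls depended on weak regions. They were 21 of 50, 33 with a flank of 5 kb and 7 with −log10 q of at least 5. Body cover of at least 10% was found in 11 combinations, and with that filter in 2. MSL3 calls were 4 of 25, with cover of at least 10% in 3, and both were 0 with −log10 q of at least 5. Both were also 0 without the cycle 13 list, which held all of them. That alternative was chosen after seeing the data, as were the others that leave out only cycle 13, cycle 14 or the male cycle 14 list.

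By sex, 1 combination was at least 25 points higher in H4K16ac cover in males and 2 in females. The counts were 3 and 5 at 10 points, 0 and 1 at 50 points, and 1 and 0 with −log10 q of at least 5. CLAMP in the male list only was found in 1 combination, in 2 with the gene body only, in 0 without the cycle 11 and 14 lists and in 0 without cycle 14. Both counts of 0 follow from leaving out cycle 14, which held that 1 combination. In the female list only it was found in 8, and in 3 without the cycle 11 and 14 lists, which leaves fewer lists. The cause of the other changes was not tested. Counts per gene and target moved by a large part of their value in 9 of 15 cases with the −log10 q filter, all downward. They did so in 3 with a flank of 5 kb, 2 with the gene body only and 1 with regions 50% inside. Smaller changes were left out of these counts. Examples are CLAMP at upd1, in 10 lists and in 8 with the gene body only, and at Sxl, in 6 lists and in 7 with a flank of 5 kb. No paired analysis was possible because each group has a single list, which also leaves no replicate to omit. With depth unknown, a gene absent from a short list, such as male CLAMP at cycle 11, may still have been bound.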
